A study of Mus musculus with 10 samples.

Results

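By counts, the immunoglobulin kappa V segments Igkv18-36, Igkv4-58, Igkv4-75 and Igkv4-77 were joined mostly to Igkj5, the last J segment of the locus. The table lists them as IGKV18-36, IGKV4-58, IGKV4-75 and IGKV4-77. They were chosen by their measured J5 share in WT, each having over 60% of its WT counts on J5. They are 4 of the 114 V segments in the table. Between them they held 1542 of 161780 counts (0.953%), in 408 distinct clonotypes, a clonotype being a combination of V, J and the nucleotides of the CDR3. Igkv4-73, at 63.7% of 554 WT counts, Igkv7-33, at 65.6% of 64, and Igkv6-29, at 80% of 5, also lay over 60% and are not on the list. Just inside the threshold were Igkv4-58 at 62.6% and Igkv18-36 at 62.8%. Igkv1-35 lay at 60% of 5 WT counts. Of the V segments with at least 30 WT counts, those just outside were Igkv4-63 at 53.9%, Igkv4-69 at 52.6% and Igkv4-57 at 49.6%.

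Kappa transcripts were amplified and sequenced from small pre-B cells that had been purified from mouse bone marrow by flow cytometry. The 10 samples were 5 of wild type (WT) and 5 of the genotype labelled rsCBE, which the series' design text writes with a delta in front. The design text gives all mice as C57Bl6 of 6 to 12 weeks, no label explains the name rsCBE, and another mutant in the design text was not analysed here. Sample totals ran from 3109 counts (WT replicate 4) to 24083. Replicates 1 and 2 of each genotype had 1 library each and replicates 3 to 5 had parts a and b, which were added. These sets are called batch 1 and batch 2 only for that difference in the table. The table holds kappa joins alone, so the labelled cell type could not be checked against other markers. Nothing in the labels says whether each sample came from a mouse of its own, and p-values measure the spread between these samples.

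Each kappa light chain gene is assembled in a pre-B cell by cutting and joining 1 V segment to 1 of the J segments J1 to J5, of which J3 is not used efficiently. A cell whose first join is out of frame or gives a self-reactive receptor can join an upstream V to a downstream J and so replace the first join, which is called secondary rearrangement or receptor editing. J5 is the last J that such a replacement can use. The CDR3 is the loop encoded across the join. The counts are of RNA, so the number of cells with a join and the RNA per cell cannot be told apart.

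All 4 segments lie on chromosome 6 in the reverse orientation to the J segments (GRCm38, GENCODE M21 annotation), so that they join J by inversion of the DNA between. Igkv18-36 (ENSMUSG00000076572.6, chr6:69992465-69992977) is annotated as a V gene and lies 730 kb from J1. Igkv4-58 (ENSMUSG00000095633.2, chr6:69500254-69500786) is annotated as a V gene and lies 1222 kb from J1. Igkv4-75 (ENSMUSG00000104712.1, chr6:69156118-69156659) and Igkv4-77 (ENSMUSG00000105462.1, chr6:69110904-69111432) are annotated as V pseudogenes and lie 1566 kb and 1611 kb from J1. J1 lies at chr6:70722562-70722599 and J5 lies at chr6:70723886-70723927. The coordinates span the leader exon, the intron and the V exon, and the CDR3 part is the end of the V exon.

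The last 60 bases of each germline segment are shown because a join's frame depends on the V end and on bases lost or added. These 60 bases were read from the annotated transcripts, with the CDR3 part in capitals, starting after the conserved cysteine codon.
Igkv18-36: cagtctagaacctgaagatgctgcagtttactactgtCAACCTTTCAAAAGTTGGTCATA
Igkv4-58: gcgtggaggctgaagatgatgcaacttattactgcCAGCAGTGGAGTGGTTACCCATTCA
Igkv4-75: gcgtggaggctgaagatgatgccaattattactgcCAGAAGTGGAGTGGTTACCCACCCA
Igkv4-77: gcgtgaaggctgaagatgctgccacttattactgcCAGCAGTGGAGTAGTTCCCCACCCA
The CDR3 part has 23 bases in Igkv18-36 and 25 in each Igkv4 member. Igkv4-77 carries a stop codon (TAA, capitals) at codon 55 of its transcript, in the stretch shown next.
Igkv4-77 stop: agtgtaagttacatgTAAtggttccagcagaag
In Igkv4-75 the cysteine codon is out of the frame of the first base of the transcript, and that frame holds 5 stop codons. Igkv18-36 and Igkv4-58 have none before the CDR3. An in-frame CDR3 of the pseudogenes Igkv4-75 and Igkv4-77 is therefore a property of the join alone and not of a whole light chain. The start of J5 and of J1, the first J segment, is given for comparison, with the bases that belong to the CDR3 in capitals.
J5: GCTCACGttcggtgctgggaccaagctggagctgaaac
J1: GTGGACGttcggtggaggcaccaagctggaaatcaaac

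The 3 Igkv4 members resemble each other, with 85.3% to 89.6% of aligned bases identical over the last 280 bases, and Igkv18-36 shares 60.1% to 64.3% with them. Reads of near-identical V segments may be split between names by V calling. Igkv4-58 is 95.7% identical to Igkv4-51, Igkv4-77 is 94.3% identical to Igkv4-72 and to Igkv4-61, and Igkv4-75 is 92.1% identical to Igkv4-81. The closest segment to Igkv18-36, Igkv16-104, is only 66.8% identical. Of the distinct CDR3 sequences of a member, 36 of 79 of Igkv4-58 were also listed under another V segment, against 3 of 75 of Igkv4-75, 2 of 117 of Igkv4-77 and 0 of 101 of Igkv18-36. The values of Igkv4-58 are the least certain of the 4 on that account. As for the J call, 9 of 101 distinct CDR3 sequences of Igkv18-36 and 3 of 79 of Igkv4-58 were listed under another J too. So were 6 of 75 of Igkv4-75 and 10 of 117 of Igkv4-77. A single CDR3 of Igkv4-58 had 67 counts under J5 and 55 under J4. Its last 7 bases match J4 and its last 5 match J5.

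In the WT samples the J5 share was used to choose the segments, so it is described and not tested. Igkv18-36 had 46.7%, 59.0%, 64.9%, 100% and 100% of its counts on J5 in WT replicates 1 to 5, the first 100% resting on a single count. Igkv4-58 had 30.8%, 38.7%, 89.5%, 100% and 83.3%. Both samples of batch 1 were low for Igkv4-58 and the 3 of batch 2 were high, so its pooled WT share of 62.6% lies between 34.3% in batch 1 and 88.3% in batch 2. Igkv4-75 had 46.9%, 50%, 93.3% and 70.0% in replicates 1, 2, 3 and 5, and no count in replicate 4. With 3 counts taken as the upper limit of a count of 0, the 3109 counts there allow Igkv4-75 up to 0.0965%. The 95% Wilson upper limit was 0.123%. Igkv4-77 had 57.9%, 67.7%, 69.2%, 21.4% and 77.8%, the low value being 14 counts of replicate 4 (95% Wilson interval 7.57% to 47.6%, which covers counting error only). The 110 other V segments together stayed between 23.7% and 34.7% in the 5 WT samples. For clonotypes summed over the WT samples, the J5 share was 52.9% in Igkv18-36, 44.2% in Igkv4-58, 50% in Igkv4-75 and 55.6% in Igkv4-77. It was 27.3% in the 110 others. In batch 1 Igkv4-58 had 21.9% of its clonotypes on J5, under the 25.8% of the others.

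The rsCBE samples played no part in the choice, and there J5 was again the main J of all 4 segments. Igkv18-36 had 58.1%, 60%, 64.4%, 71.4% and 61.5% of counts on J5 in rsCBE replicates 1 to 5. Igkv4-58 had 65.1%, 69.1%, 55%, 62.9% and 71.4%. Each of these samples lay above the 37.4% to 40.1% of the 110 other V segments. Igkv4-77 had 61.1%, 65.1%, 75.9%, 73.8% and 58.3%, also above the other segments in every sample. Igkv4-75 was the most spread, at 55.9%, 63.8%, 86.7%, 36.4% and 100%, the last 3 values from 15, 11 and 18 counts. Its replicate 4 (95% Wilson interval 15.2% to 64.6%) was the only rsCBE value of a member under that of the other segments.

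**Figure D1:**
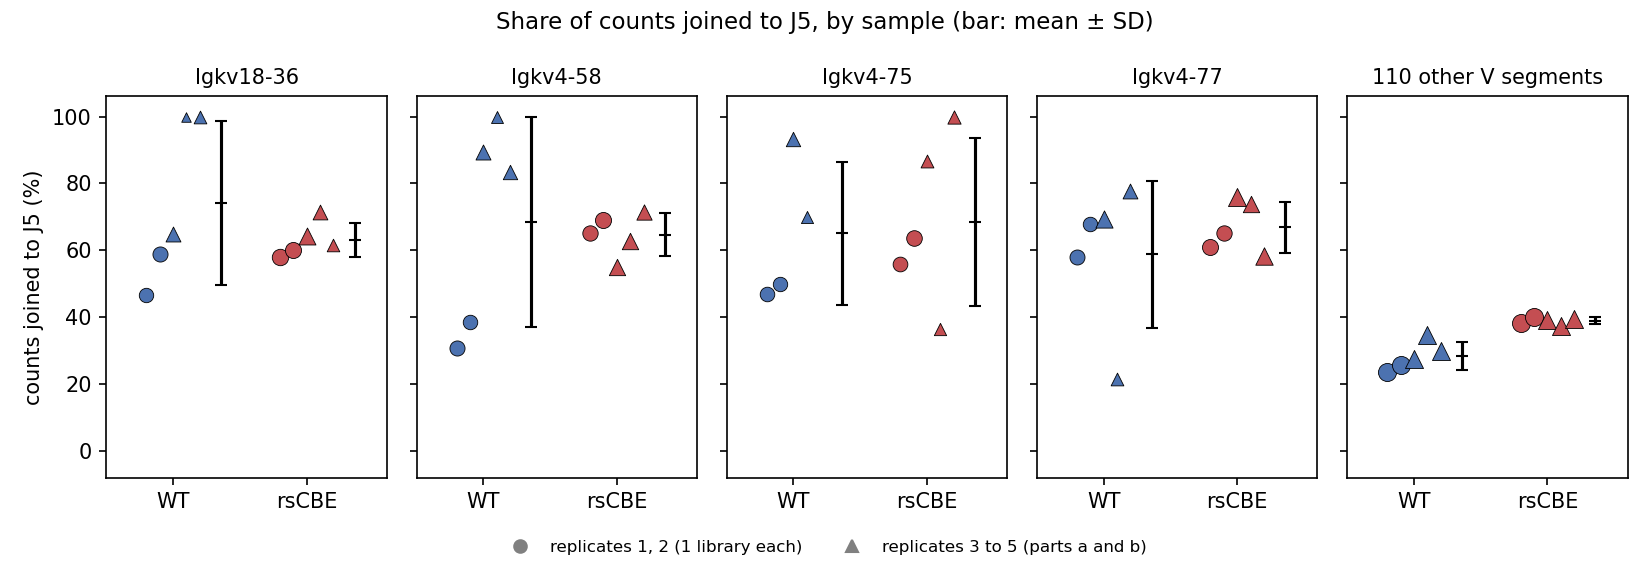
Percentage of counts joined to J5 (y axis) in each WT (blue) and rsCBE (red) sample, for the 4 segments and the 110 other V segments together; larger symbols hold more counts, circles are replicates 1 and 2, triangles replicates 3 to 5, and black bars show the mean and SD over samples. The members lie mostly above 55% in rsCBE, against 37.4% to 40.1% for the other V segments. Igkv18-36, Igkv4-58 and Igkv4-77 vary more between WT samples than between rsCBE samples, and Igkv4-75 varies widely in both.

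The odds of J5 against all other J segments were compared with those of the whole repertoire in the 5 rsCBE samples, with edgeR's quasi-likelihood test and Benjamini-Hochberg adjustment over 99 V segments with at least 50 counts. All 4 members had higher J5 odds than the repertoire, in a comparison in which 40.4% of V segments were called higher and 24.2% lower. The log2 odds ratio of Igkv18-36 was 1.39 ± 0.28 (SE, adjusted p = 0.000314) and that of Igkv4-58 was 1.49 ± 0.26 (adjusted p = 8.02e-05). Igkv4-77 stood at 1.67 ± 0.25 (adjusted p = 1.44e-05) and Igkv4-75 at 1.73 ± 0.52 (adjusted p = 0.00776). No pair of the 4 values differed by more than the sum of its errors. Their median was 1.58, against 0.39 over all 99 segments. Other members of the Igkv4 family had a median of 0.69, with 14 of 25 tested called higher and 1 lower. Of the 9 annotated pseudogenes tested, 5 were called higher and none lower, the members Igkv4-75 and Igkv4-77 being among the 5. With each clonotype counted once the members' log2 odds ratios were 1.17, 1.14, 1.25 and 1.22 in the order Igkv18-36, Igkv4-58, Igkv4-75 and Igkv4-77, and all 4 were called higher, as 26.1% of the 92 V segments tested in that way were. Within batch 1 the values were 1.14, 1.65, 1.21 and 1.38 in the same order, all called higher, with 35.2% of all V segments tested. Within batch 2 they were 1.61 for Igkv18-36, 1.40 for Igkv4-58 and 1.83 for Igkv4-77, all called higher, with 23.6% of all V segments tested, and Igkv4-75 was not tested there.

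**Figure D2:**
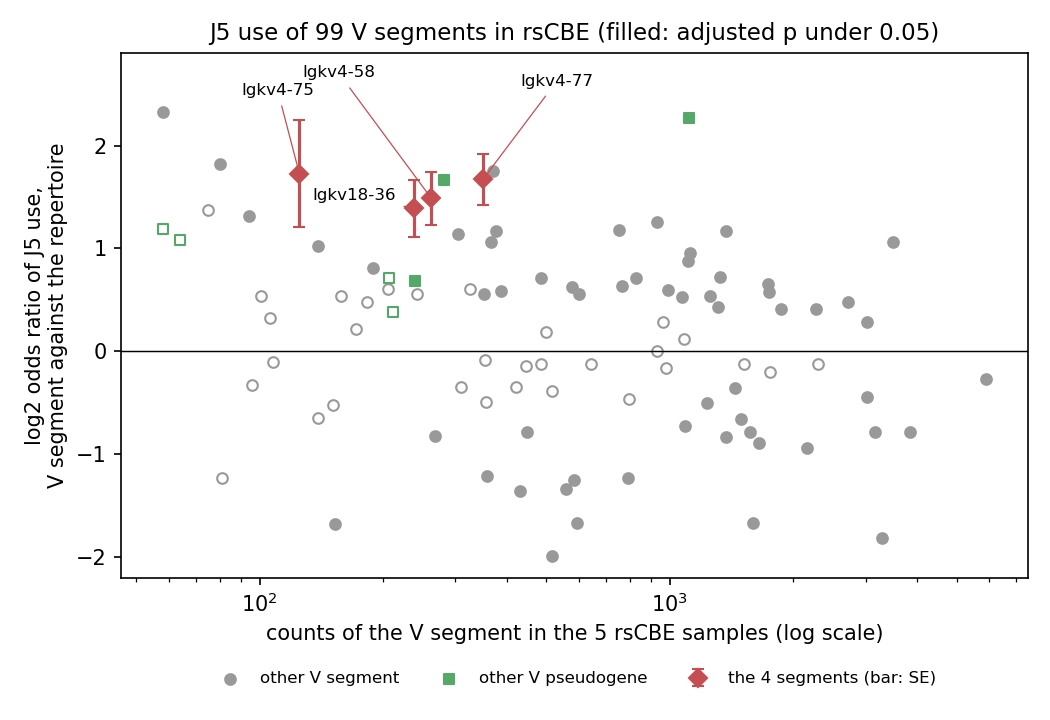
Log2 odds ratio of J5 use against the repertoire (y axis) by the number of counts in the 5 rsCBE samples (x axis, log scale) for 99 V segments; filled symbols have an adjusted p under 0.05, diamonds with SE bars are the 4 members and squares are other V pseudogenes. The members lie between 1.39 and 1.73, above the median of 0.39, and some other V segments lie higher, Igkv4-73 and Igkv7-33 among them.

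The J5 share of the 4 segments by genotype is a description only, because the WT share chose them. For the 4 together it moved in opposite directions in the 2 batches, from 49.6% in WT to 62.3% in rsCBE in batch 1 and from 76.4% to 67.5% in batch 2. Igkv4-77 was close in both, at 62.3% and 62.9% and then 66.4% and 69.6%. Igkv4-58 went from 34.3% to 67.3% in batch 1 and from 88.3% to 62.2% in batch 2. The 110 other V segments were higher in rsCBE in both, at 24.7% and 39.2% in batch 1 and 29.2% and 38.6% in batch 2. With both batches pooled the share was 62.8% in WT (95% Wilson interval 53.9% to 70.9%) and 62.6% in rsCBE (56.3% to 68.5%) for Igkv18-36, and 62.6% and 64.1% for Igkv4-58. The pooled share was 63.7% and 67.2% for Igkv4-75, and 65.0% and 67.7% for Igkv4-77. Over the same samples the 110 other V segments went from 26.4% to 38.9% and the 28 other Igkv4 segments from 37.4% to 50.8%. Since a high WT share was the rule, the smaller pooled difference of the members is not read as a property of theirs. Averaged over samples, the 4 segments together had 62.5% ± 16.0 (SD, n = 5) on J5 in WT and 65.3% ± 3.24 (SD, n = 5) in rsCBE. The 110 others had 28.3% ± 4.22 (SD, n = 5) and 38.9% ± 1.05 (SD, n = 5).

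The rule leaves less than 40% of a member's WT counts for the other J segments together, so their WT shares are a description and not a difference from other V segments. In WT the counts that were not on J5 went mainly to J4 and J2 in Igkv18-36, Igkv4-58 and Igkv4-77. Those of Igkv4-75 were spread over J1, J2 and J4, with 11, 12 and 14 counts. J1, the segment nearest to V, took 3.31% of the WT counts of Igkv18-36, 7.48% of Igkv4-58, 10.8% of Igkv4-75 and 8.12% of Igkv4-77, against 31.7% for the 110 others. These shares differed by batch, at 5.80% in batch 1 and 0% in batch 2 for Igkv18-36, 15.7% and 0% for Igkv4-58, 17.7% and 0% for Igkv4-75, and 11.6% and 6.25% for Igkv4-77. The counts of 0, of 52, 77 and 40 in that order, allow shares of up to 5.77%, 3.90% and 7.5%, with 3 counts as the limit. The 110 others had 30.7% and 33.3%. In rsCBE the J1 shares were 2.94%, 11.8%, 12.0% and 4.86%, against 24.2% for the others. J4 took 19.0% of the WT counts of Igkv18-36 and 23.9% of its rsCBE counts, the highest J4 shares of the 4. J2 took 14.9% of the WT and 10.5% of the rsCBE counts of Igkv18-36. J3 had 0 of 1542 counts of the members, which allows a share of up to 0.195% by the same limit. Taking the 4 together in rsCBE, J1, J2, J4 and J5 had 7.18%, 10.9%, 16.5% and 65.4% of 975 counts. The V segments with the most similar J shares in rsCBE, of 87 candidates with at least 100 counts, were Igkv8-34, Igkv12-40 and Igkv4-57. The likeness was measured as the total variation distance, the share of counts that would have to move to another J to make the 2 sets of shares equal, and it was 0.0411, 0.0561 and 0.0666. Igkv8-34 had 68.7% on J5 there, Igkv12-40 67.4% and Igkv4-57 61.1%.

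**Figure D3:**
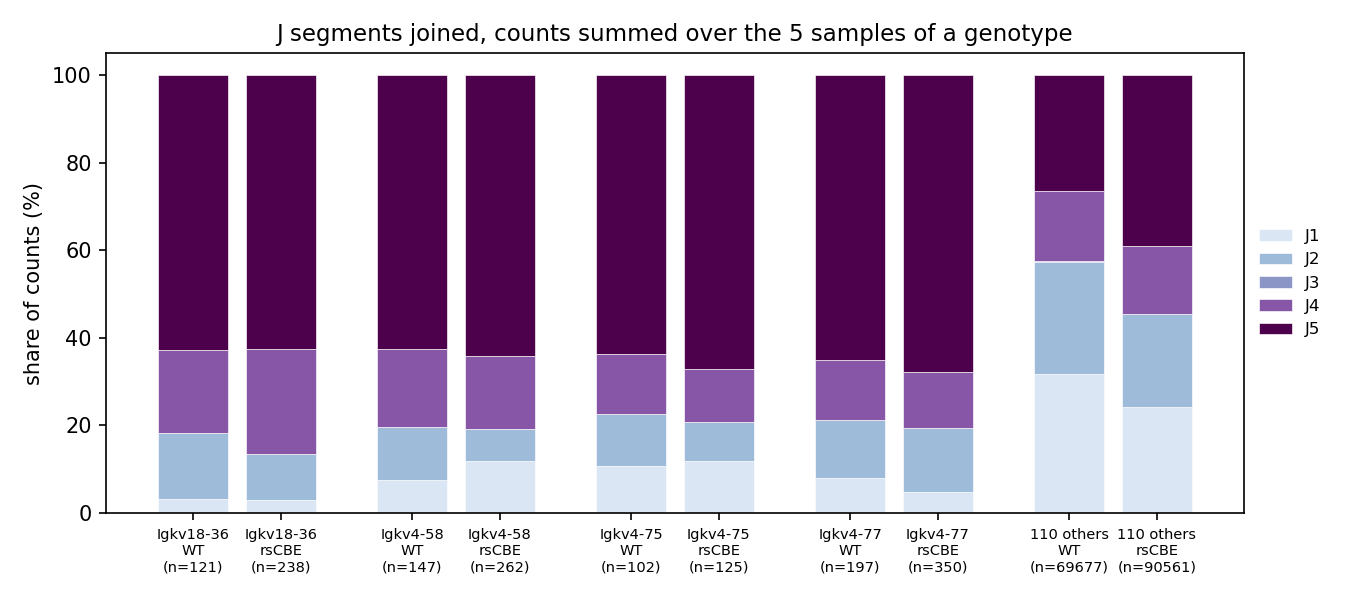
Share of counts (y axis, percent) on each J segment, summed over the 5 samples of a genotype, for each member and for the 110 other V segments; n is the number of counts. The members' WT bars are over 60% J5 by the rule that chose them, which also limits their J1. In the rsCBE bars, which the rule did not use, J5 fills 62.6% to 67.7% of the members and J1 2.94% to 12.0%, against 38.9% and 24.2% of the other segments.

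The nearest annotated V segments in the genome did not all share the J5 share of the members. Igkv5-37, next to Igkv18-36, had 37.5% of 56 WT counts and 61.3% of 75 rsCBE counts on J5. Igkv1-35, on its other side, had 60% of 5 WT counts and 35.7% of 14 rsCBE counts. The pseudogene Igkv4-60, next to Igkv4-58, had 26.7% of 45 WT counts and 57.8% of 64 rsCBE counts. Igkv4-78, next to Igkv4-77, had 47.2% of 218 and 58% of 305. The other neighbours, Igkv13-57-2, Igkv13-76 and Igkv13-74-1, had 0 counts. No test was made of these differences.

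No member's usage differed between genotypes by the test. Igkv18-36 had 30, 39, 37, 1 and 14 counts in the WT samples and 62, 55, 73, 35 and 13 in the rsCBE samples. As a share of all counts this was 0.153% ± 0.0853 (SD, n = 5) in WT and 0.250% ± 0.102 in rsCBE, and the groups overlapped. Igkv4-58 had 39, 31, 38, 9 and 30 counts in WT and 43, 55, 60, 62 and 42 in rsCBE. Igkv4-75 had 32, 30, 30, 0 and 10 in WT and 34, 47, 15, 11 and 18 in rsCBE. Igkv4-77 had 38, 31, 78, 14 and 36 in WT and 54, 43, 108, 61 and 84 in rsCBE. It had the most counts of the 4 when samples were pooled, but in each sample of batch 1 Igkv18-36 or Igkv4-58 had more. The counts follow the sample totals in part, so the test used them relative to the total. In edgeR's quasi-likelihood test none of 98 V segments was called (0%, with 7 at an unadjusted p under 0.05 and 0 called by DESeq2). The log2 fold change of rsCBE over WT was 0.63 ± 0.44 (SE, adjusted p = 0.973) for Igkv18-36, 0.37 ± 0.36 for Igkv4-58, 0.35 ± 0.49 for Igkv4-77 and -0.0049 ± 0.48 for Igkv4-75, the last 3 with an adjusted p of 0.992. Leaving out 1 sample gave 0.40 to 0.89 for Igkv18-36, 0.21 to 0.52 for Igkv4-58 and 0.08 (without rsCBE replicate 5) to 0.65 (without WT replicate 3) for Igkv4-77, with no call. No label says that same-numbered samples are pairs, and such pairs were not counted for the other V segments. Taken by number, the share was higher in rsCBE in 5 of 5 for Igkv4-58 and in 4 of 5 for each of the other members. For the 4 together it was higher in 5 of 5, at 0.611%, 0.612%, 1.32%, 0.772% and 0.982% in WT and 0.801%, 0.858%, 1.40%, 1.19% and 1.35% in rsCBE. With the replicate number as a block the log2 fold changes were 0.62, 0.34, 0.06 and 0.34 for Igkv18-36, Igkv4-58, Igkv4-75 and Igkv4-77, and the adjusted p was 0.399, 0.521, 0.976 and 0.508.

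The number of distinct clonotypes gave the same picture. Igkv18-36 had 21, 31, 11, 1 and 4 clonotypes in WT and 37, 35, 25, 13 and 7 in rsCBE. Igkv4-77 had 27, 22, 22, 6 and 13 and then 32, 29, 35, 25 and 25. Igkv4-58 had 3 to 18 per WT sample and 13 to 24 per rsCBE sample, and Igkv4-75 had 0 to 23 and 3 to 28. Relative to all clonotypes of a sample, the log2 fold changes were 0.42 ± 0.34 for Igkv18-36, 0.32 ± 0.27 for Igkv4-58, -0.09 ± 0.41 for Igkv4-75 and 0.28 ± 0.33 for Igkv4-77 (SE, edgeR adjusted p = 0.987 for each). None of 87 V segments was called (0%, with 5 at an unadjusted p under 0.05 and 0 called by DESeq2). Leaving out 1 sample gave 0.28 to 0.66 for Igkv18-36, 0.18 to 0.47 for Igkv4-58 and 0.09 to 0.46 for Igkv4-77, with no member called. Clonotypes seen in more than 1 sample made up 32 of 113 of Igkv18-36, 21 of 84 of Igkv4-58, 19 of 82 of Igkv4-75 and 43 of 129 of Igkv4-77. Over the 110 other V segments the share was 25.5%.

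The 4 segments differed in how often their CDR3 was in frame, meaning a length divisible by 3 with no stop codon. Igkv18-36 was in frame in 36.7%, 33.3%, 2.70%, 0% and 0% of counts in the WT samples and in 30.6%, 32.7%, 52.1%, 51.4% and 30.8% in the rsCBE samples. It was low in every sample against the 61.3% to 76.7% of the 110 other V segments. Igkv4-77 was in frame in 39.5%, 51.6%, 50%, 28.6% and 44.4% in WT and in 59.3%, 55.8%, 54.6%, 54.1% and 50% in rsCBE. These too lay under the others in every sample. Igkv4-75 had 43.8%, 46.7%, 83.3% and 80.0% in WT replicates 1, 2, 3 and 5, and 61.8%, 55.3%, 73.3%, 36.4% and 50% in rsCBE. Igkv4-58 was the highest, with 87.2%, 74.2%, 86.8%, 100% and 100% in WT and 74.4%, 67.3%, 85.0%, 61.3% and 78.6% in rsCBE.

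**Figure D4:**
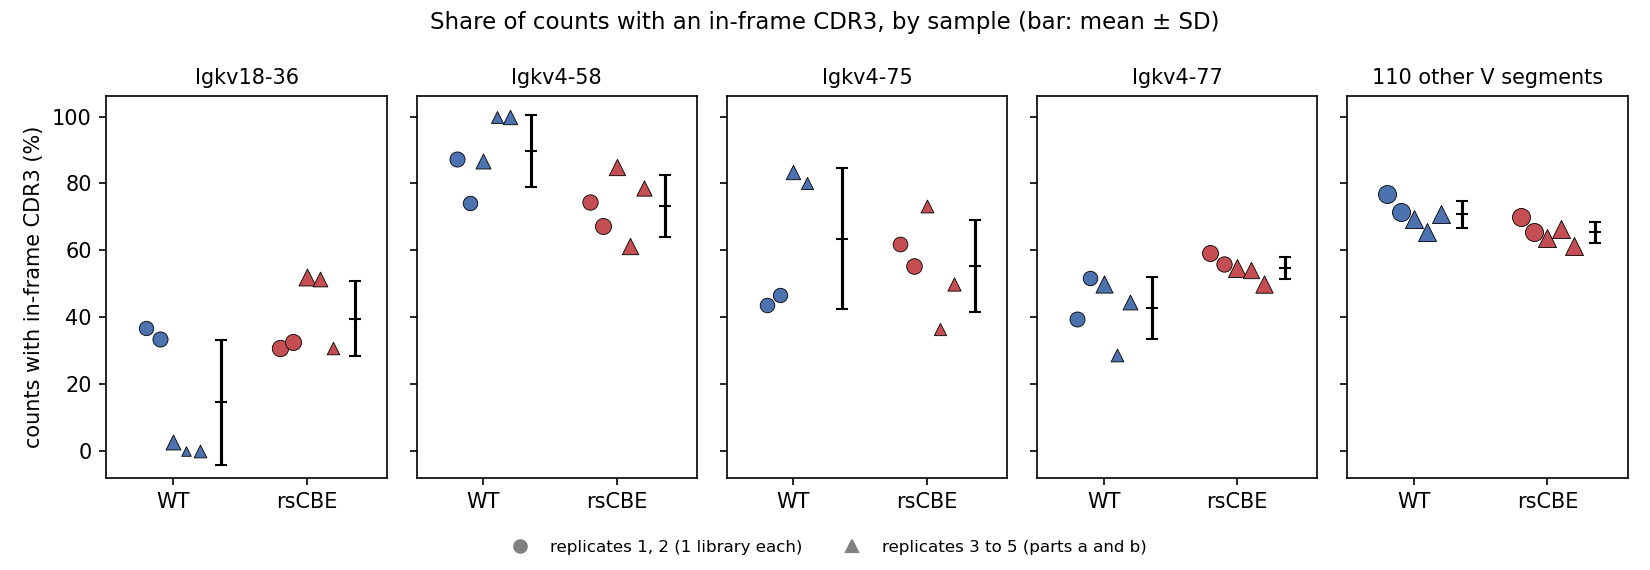
Percentage of counts with an in-frame CDR3 (y axis) in each WT (blue) and rsCBE (red) sample, for the 4 segments and the 110 other V segments together; symbols as in the plot of J5 shares, with black bars for the mean and SD. Igkv18-36 and Igkv4-77 lie under the other V segments in every sample.

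Against the repertoire over all 10 samples, with the same edgeR model, 34% of 103 V segments differed in their in-frame odds, 16.5% higher and 17.5% lower. Igkv18-36 had the lowest log2 odds ratio of the 103, at -2.30 ± 0.42 (SE, adjusted p = 3.82e-05). It was called lower in both batches, at -2.26 in batch 1, where 20.6% of V segments were called lower, and -2.51 in batch 2, where 11.1% were. With each clonotype counted once it stood at -1.01 (adjusted p = 0.000136), and 14.4% of V segments were called lower. Igkv4-77 was also lower, at -1.08 ± 0.27 (adjusted p = 0.00172). With each clonotype counted once Igkv4-77 stood at -0.41 (adjusted p = 0.0693), and within batch 2 at -1.04 (adjusted p = 0.0538). Igkv4-75 was at -0.60 ± 0.43 (adjusted p = 0.305), and within batch 1 it was called lower, at -1.13 (adjusted p = 0.0046), and within batch 2 it stood at 0.02 (adjusted p = 0.988). Igkv4-58 was higher, at 0.98 ± 0.38 (adjusted p = 0.0432), and this call was lost in 8 of the 10 fits that left out 1 sample. Those 8 are the fits without any 1 of WT replicates 1 to 5 or without rsCBE replicate 1, 3 or 5, and the adjusted p over the 10 fits ran from 0.0286 to 0.0990. Within batch 1 it was 0.37 (adjusted p = 0.439) and within batch 2 it was 1.59 (adjusted p = 0.0803). The 9 pseudogenes tested had a median of -0.84, with 4 called lower and none higher.

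Between genotypes no V segment changed its in-frame odds by the test (0% of 103, with 10 at an unadjusted p under 0.05). The log2 odds ratio of rsCBE over WT was 1.62 ± 0.82 for Igkv18-36 and -1.48 ± 0.74 for Igkv4-58 (SE, edgeR adjusted p = 0.435 for both). It was 0.61 ± 0.55 for Igkv4-77 (adjusted p = 0.640) and -0.37 ± 0.86 for Igkv4-75 (adjusted p = 0.883). The value of Igkv18-36 came from batch 2, where it was 5.17, and was -0.21 within batch 1. It was 0.13 with each clonotype counted once (adjusted p = 0.939), 3.58 without clonotypes of 1 count (adjusted p = 0.292) and 0.98 without WT replicate 3 (adjusted p = 0.585). In WT batch 2, 1.92% of its 52 counts, in 16 clonotypes summed over the samples, were in frame.

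The in-frame share is given by J segment as a description of pooled counts, with no test. In Igkv18-36, 27.1% of 225 counts on J5 were in frame, against 37.5% of 80 on J4, 53.5% of 43 on J2 and 72.7% of 11 on J1. In Igkv4-58 it was 82.7% of 260 on J5, 87.1% of 70 on J4, 64.9% of 37 on J2 and 47.6% of 42 on J1. In both segments, as in Igkv4-75, Igkv4-77 and the 110 others together, the J5 share of counts in frame lay under the J4 share. In Igkv4-75, 64.4% of 149 counts on J5 were in frame, 69.0% of 29 on J4, 30.4% of 23 on J2 and 34.6% of 26 on J1. In Igkv4-77 it was 55.1% of 365 on J5, 58.3% of 72 on J4, 27.3% of 77 on J2 and 48.5% of 33 on J1. Over distinct clonotypes the range across J1, J2, J4 and J5 was narrower in each member. It ran from 32.8% (J5) to 57.1% (J1) in Igkv18-36, from 47.4% (J2) to 56.4% (J5) in Igkv4-58, from 25% (J1 and J2) to 43.9% (J5) in Igkv4-75, and from 33.3% (J2) to 40.9% (J4) in Igkv4-77. Among the 110 others J5 joins were in frame in 63.8% of counts, J4 joins in 66.1% and J1 joins in 72.5%.

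In rsCBE, J5 led among the members' joins out of frame as well as among those in frame. There, 70.9% of the 141 counts of Igkv18-36 that were not in frame were on J5, and 50.5% of its 97 in-frame counts. For Igkv4-77 the values were 63.1% of 160 and 71.6% of 190. For Igkv4-75 they were 57.4% of 54 and 74.6% of 71, and for Igkv4-58 59.2% of 71 and 66.0% of 191. Among the 110 others in rsCBE they were 44.8% and 35.9%. In WT the out-of-frame counts were 66.7% on J5 for Igkv18-36, 53.7% for Igkv4-75 and 58.9% for Igkv4-77. Igkv4-58 had 3 of its 18 out-of-frame WT counts on J5 (16.7%). These WT values rest on the J5 counts that chose the members, and most of the out-of-frame WT counts of Igkv4-58 came from batch 1, where its J5 share was 34.3% in all, so frame and batch cannot be told apart in them.

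The germline ends relate to the frame as follows. Igkv18-36 joined to J5 with no base lost and none added gives a CDR3 of 30 bases, a multiple of 3, with a stop codon (TAG, capitals) at codon 8. This join is shown because it was observed, in 18 counts over 5 samples, which are 18 of the 22 counts of Igkv18-36 whose length is a multiple of 3 but which hold a stop.
Igkv18-36 to J5, untrimmed: caacctttcaaaagttggtcaTAGctcacg
The untrimmed joins to J1, J3 and J4 also hold a stop at codon 8 and were not observed. The same untrimmed joins of the Igkv4 members to J1, J3, J4 and J5 have 32 bases and are out of frame, and their joins to J2 have 33 bases and are in frame. Of these only Igkv4-77 to J5 was observed, in 7 counts over 3 samples. Among distinct clonotypes, 42 of 113 of Igkv18-36 were in frame (37.2%), 45 of 84 of Igkv4-58 (53.6%), 29 of 82 of Igkv4-75 (35.4%) and 49 of 129 of Igkv4-77 (38%). The 110 other V segments had 50.8%.

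**Figure D5:**
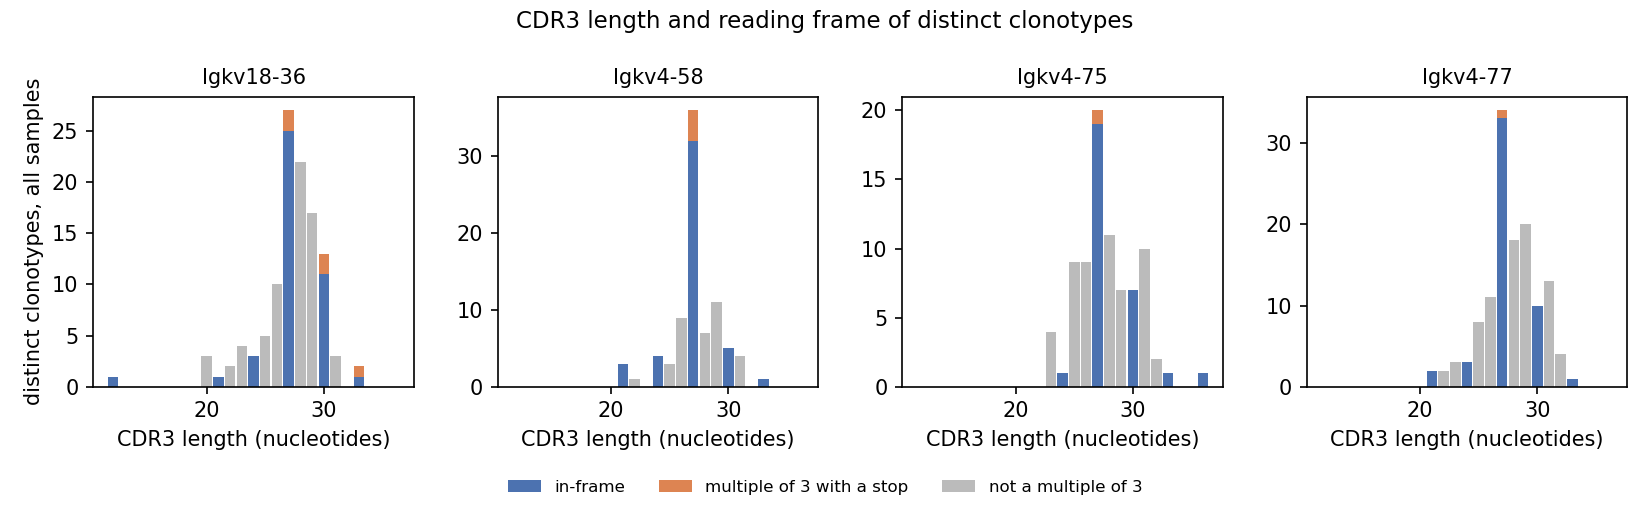
Number of distinct clonotypes over all samples (y axis) by CDR3 length in nucleotides (x axis) for the 4 segments, divided into in-frame, multiple of 3 with a stop codon, and not a multiple of 3. In each segment the tallest bar is at 27 nucleotides and is mostly in frame.

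The commonest CDR3 length among distinct clonotypes was 27 nucleotides in each segment. At that length there were 25 in-frame clonotypes of Igkv18-36 (89 counts), 32 of Igkv4-58 (288 counts), 19 of Igkv4-75 (115 counts) and 33 of Igkv4-77 (227 counts). A typical clonotype had lost 3 to 5 bases of V and 2 of J. These numbers assign a base that V and J could both supply to V, so where V ended is ambiguous.

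The clonotypes seen in most samples are shown because they give the commonest junctions, with the longest run of final bases that matches the J segment in capitals.
Igkv4-58 to J5: cagcagtggagtggttacccGCTCACG
Igkv4-75 to J5: cagaagtggagtggttacccGCTCACG
Igkv4-77 to J5, first: cagcagtggagtagttccccGCTCACG
Igkv4-77 to J5, second: cagcagtggagtagttccccaCTCACG
Igkv18-36 to J5: caacctttcaaaagttggtcataTCACG
Igkv18-36 to J4: caacctttcaaaagttggtcATTCACG
The Igkv4 members shared 1 form of junction, V up to its CCC followed by the whole 7-base start of J5, which gives 27 bases in frame. In Igkv4-58 it had 102 counts (24.9% of the segment) and was seen in all 10 samples, with 47 counts in WT and 55 in rsCBE. The same CDR3 was listed under 2 other V segments with 134 counts, more than under Igkv4-58, so its assignment to that segment is uncertain. The CDR3 of this form in Igkv4-75 and Igkv4-77 was listed under no other V segment. In Igkv4-75 it had 48 counts (21.1%) in 6 samples, 24 in each genotype, of which 18 were in WT replicate 3. In Igkv4-77 it had 76 counts (13.9%) in 9 samples, 29 in WT and 47 in rsCBE. The second Igkv4-77 clonotype, with 41 counts, was seen in all 10 samples. The clonotype of Igkv18-36 seen in most samples kept all 23 bases of V, had 28 bases and was out of frame, with 33 counts in 8 samples. Its most widely seen in-frame clonotype was the join to J4, with 20 counts in 6 samples.

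CDR3 length by genotype could be tested for Igkv4-58 and Igkv4-77, which had at least 5 counts in every sample. The mean was 26.3 nucleotides ± 1.63 (SD, n = 5) in WT and 27.0 ± 0.215 in rsCBE for Igkv4-58, and 28.3 ± 1.58 and 27.5 ± 0.395 for Igkv4-77. WT replicate 4 was the extreme WT sample in both, at 23.7 from 9 counts of Igkv4-58 and 31.0 from 14 counts of Igkv4-77. The difference of rsCBE from WT was 0.714 for Igkv4-58 and -0.785 for Igkv4-77, and without that sample 0.0618 and -0.107. In a two-sided exact permutation test, adjusted over 81 V segments of which 0% were called, the adjusted p was 0.923 and 0.921. The smallest p that 5 against 5 samples allow is 0.00794, and 9 of the 81 had an unadjusted p under 0.05. Igkv18-36 had 28.5 ± 0.970 in WT and 27.2 ± 0.362 in rsCBE, and Igkv4-75 had 27.4 ± 0.470 (SD, n = 4) and 27.4 ± 0.371, with no test.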

How the data were processed

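Kappa transcripts of 10 samples were analysed, 5 WT and 5 rsCBE, grouped by the genotype label. Paired-end amplicon reads were taken on a MiSeq, per the labels' protocols. The count column of the deposited table gives, per the file headers, the count of each V call, J call and CDR3 in a library. The build mm10 is named per the submitters' processing notes. What 1 count stands for (a read pair or an original molecule), the V and J caller and the germline set are not given in the sources used here. Alleles were merged, 49 duplicate lines of 49079 were merged, and parts a and b were added. The frame was taken from the CDR3 nucleotides. Of the 114 V segments, 112 matched the GENCODE M21 annotation, from whose transcripts the germline sequences were read.

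Counts were tested with the quasi-likelihood test of edgeR 4.0.16 in R 4.3.3, at an adjusted p of 0.05. Library size was the sample total for usage and the number of clonotypes of the sample for clonotype number. J5 and frame used 2 columns a sample with the sample as a factor, for V segments with at least 50 counts. In these, library size was the total of each column against the repertoire and the sample total between genotypes. DESeq2 1.42.0 was an alternative. The scripts were tested on simulated data. Sample totals ran from 3109 to 24083. Wilson intervals cover counting error only. No pair of samples of a group had counts as alike as sampling noise allows (chi-square per degree of freedom of at least 2.39 over 20 pairs).

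Same-numbered WT and rsCBE samples deviated together (correlations 0.80, 0.80, 0.60, 0.12 and 0.41 for numbers 1 to 5), and the numbers were treated as pairs in an alternative with a replicate block. For 3 of the 5 WT samples an rsCBE sample of another number correlated more (0.35 for number 4 and 0.60 for number 5), and no label says what a number marks. Other alternatives were TMM scaling, no filter, each clonotype once, no clonotypes of 1 count, a batch term, each batch alone and leaving out each sample. The members and lists were chosen with earlier results of these data known. Genes named beside the members are those over or just under the threshold, those nearest in J shares and the neighbours in the genome. Clonotypes named are from the 3 of each member seen in most samples, then with most counts.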

Additional observations from a re-analysis of the deposited data

Results flagged for a closer look

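The mean CDR3 length of Igkv4-77 in WT replicate 4 was 31.0 nucleotides, far from the 27.1 to 28.1 of the other 4 WT samples. The gap to the nearest sample was 0.738 of the whole range, above the critical value of 0.71 for 5 samples. It was computed from 14 counts, and this sample had the lowest total. Among 32 groups examined, 1 stood apart in this way, and chance marks about 1 in 20, which is 1.6 of 32.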

How the results depend on the processing

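The higher J5 odds of the 4 members in rsCBE held in direction and call under every alternative that tested them, and the number of V segments called was 54 to 64 when a sample was left out and 38 within batch 2. The number with in-frame odds unlike the repertoire was 27 to 39 when a sample was left out and 18 within batch 2. For usage, the replicate block called 1 V segment and a batch term 2, against 0. For clonotype number, the replicate block called 1, a batch term 3 and batch 1 alone 2, against 0. For in-frame odds between genotypes, leaving out a sample gave 0 to 3 calls, with 3 only without rsCBE replicate 1. The replicate block changed no member's call.

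The values of Igkv4-75 turned sign between settings. Its usage difference was 0.0015 without a filter, 0.0566 with the replicate block, 0.285 within batch 1 and -0.219 to 0.254 with a sample left out. Over all alternatives the usage difference of Igkv4-75 ran from -0.368 to 0.285. Its clonotype number difference was 0.0106 with the replicate block, 0.0049 with a batch term, 0.0854 within batch 1 and -0.346 to 0.111 with a sample left out. Its in-frame difference between genotypes was 0.754 within batch 1, -1.91 within batch 2 and -0.837 to 0.169 with a sample left out, and its in-frame odds against the repertoire were 0.0245 within batch 2. Igkv18-36 had an in-frame difference of -0.210 within batch 1, and Igkv4-58 a length difference of -0.331 nucleotides within batch 1. The cause was not tested. Depth limits the smallest samples: WT replicate 4 held 24 counts of the 4 members.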
